A study of Mus musculus with 18 samples.

Results

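H3K9ac regions lying apart from H3K4me3 are the rows of the H3K9ac comparison list that share no base with any row, of either colour, of the H3K4me3 list. There are 587 of them among 1878 H3K9ac regions (31.3%, 95% Clopper-Pearson interval 29.2 to 33.4), and the 4 lists of the series hold 60531 regions in all. They were chosen by measured values, namely the positions in the H3K9ac and H3K4me3 lists, so every property of those 2 lists is given below as a description with no test. Being apart means that no listed H3K4me3 region shares a base with them, though one may abut them. It does not mean that H3K4me3 is missing there, since both lists are named as comparisons of cell types and not as maps of where a mark occurs.

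The series used mouse cells of 2 kinds. The first is T cell acute lymphoblastic leukaemia (T-ALL) from tumours that overexpress Notch1-IC, the intracellular, active form of the receptor Notch1. The second is normal CD4+ CD8+ double-positive (DP) thymocytes, the stage at which thymocytes carry both co-receptors. H3K9ac was measured by chromatin immunoprecipitation and sequencing in 2 T-ALL and 2 DP libraries, as were H3K4me3 and H3K27me3, and Notch1 in 1 T-ALL library. The labels give no strain or age, and do not say how Notch1-IC was introduced, whether animals were pooled or whether libraries of a group came from separate animals. All values come from region lists without values per library, so depth and the spread between replicates are unknown.

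Acetylation of lysine 9 of histone H3 is placed by acetyltransferases such as Gcn5 and PCAF and removed by histone deacetylases. It marks active promoters and is also found at active enhancers. H3K4me3, placed by the SET1 and MLL complexes, is concentrated around active transcription start sites, while distal enhancers typically carry H3K4me1 instead. H3K27me3 is the repressive mark of Polycomb repressive complex 2, and Notch1-IC acts at DNA through the factor RBPJ. Each histone region is drawn in green or red, and the direction that a colour stands for, T-ALL over DP or the reverse, is not stated in the labels or list headers, so colours are reported as such. Intervals given for shares and medians cover counting error only, and regions are not independent replicates.

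The regions apart from H3K4me3 were more often red than green. Red regions numbered 347 and green ones 240, a red share of 59.1% (55.0 to 63.1), against 44.8% (42.1 to 47.6) in the 1291 H3K9ac regions that share bases with H3K4me3 and 49.3% over the whole H3K9ac list. Counted the other way, 37.5% of all red H3K9ac regions (34.3 to 40.7) and 25.2% of all green ones (22.5 to 28.1) lay apart from H3K4me3. The edge of the rule is sharp to 25 bp, the grid on which all starts and widths fall. Just inside it, 22 regions abut an H3K4me3 region (14 green, 8 red) and 20 lie 25 bp away (10 of each colour). Just outside it, 19 regions share 25 bp with H3K4me3 (11 green, 8 red).

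The regions were narrow, and the few wide ones were mostly red. Green regions ran from 175 to 1200 bp with a median of 575 bp, and red ones from 125 to 2600 bp with a median of 625 bp. Of the 35 regions at least 1000 bp wide, 31 were red and 4 green. In the H3K9ac regions sharing bases with H3K4me3 the medians were 625 bp for both colours, and 61 red and 55 green regions were at least 1000 bp wide. Together the regions apart from H3K4me3 covered 0.392 Mb, against 0.917 Mb for the regions sharing bases.

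The share of H3K9ac regions lying apart from H3K4me3 varied little between chromosomes, while the balance of colours varied more. The H3K9ac list has regions on 11 chromosomes, while the H3K27me3, H3K4me3 and Notch1 lists have them on 20, 21 and 20. Whether the H3K9ac list is complete is not stated, so its counts hold for those 11 chromosomes only. The share apart ran from 23.4% on chromosome 16 (22 regions) to 33.6% on chromosome 3 (47 regions), with intervals that overlap on every chromosome. Green made up 16.4% of these regions on chromosome 7 (12 green, 61 red; interval 8.79 to 27.0) and 15.2% on chromosome 19 (5 green, 28 red; 5.11 to 31.9). On the other 9 chromosomes green made up 40.0% to 55.3%. In the regions sharing bases with H3K4me3, green made up 48.7% on chromosome 7 and 35.3% on chromosome 19. The latter was the lowest such share of the 11 chromosomes, so the low value there was not particular to the regions apart. The green share was below that of the regions sharing bases with H3K4me3 on 10 of 11 chromosomes, with chromosome 17 as the exception, at 48.9% against 42.0%. Without chromosomes 7 and 19 the green share was 46.4%, against 57.3% in the regions sharing bases. The plot of green share by chromosome shows chromosomes 7 and 19 as the low points.

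**Figure D1:**
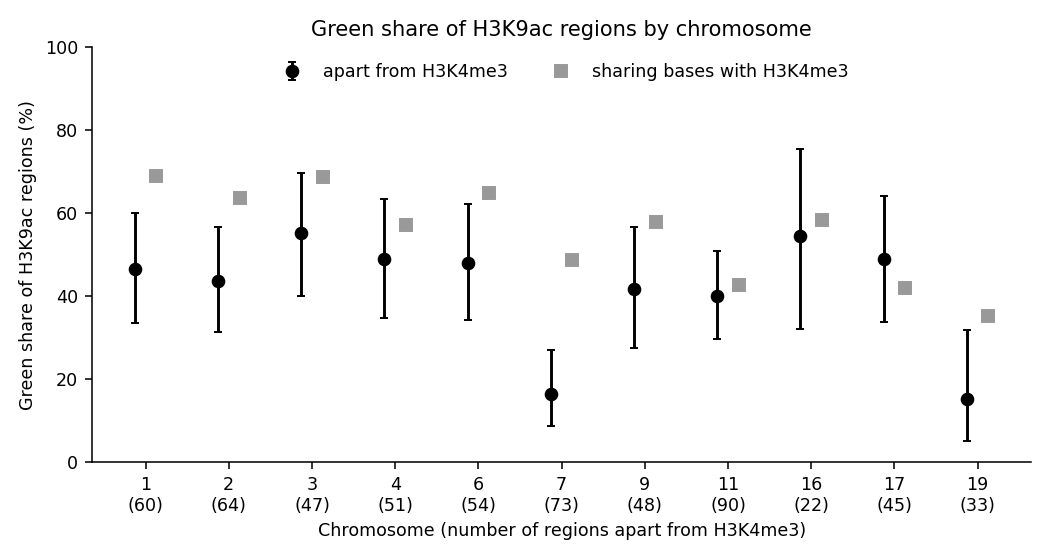
Share of green regions (%, y axis) among H3K9ac regions on each of the 11 chromosomes of the list (x axis, with the number of regions apart from H3K4me3). Black circles are regions apart from H3K4me3 with 95% Clopper-Pearson intervals, and grey squares are regions sharing bases with H3K4me3; the circles are lowest on chromosomes 7 (16.4%) and 19 (15.2%).

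The regions ranged from ones beside an H3K4me3 region to ones far from any, with 291 (49.6%) within 1 kb. The distance is the number of bases between the region and the nearest H3K4me3 region of either colour. Its median was 1.05 kb (interval 0.70 to 1.75), with quartiles of 0.175 and 15.2 kb. Within 500 bp there were 247 regions (42.1%), between 500 bp and 10 kb 165 (28.1%), and beyond 10 kb 175 (29.8%). The class from 25 to 500 bp alone held 225. Red regions lay farther away than green ones at the median, 1.45 kb (0.80 to 2.675) against 0.663 kb (0.45 to 1.475), with upper quartiles of 15.1 and 15.6 kb. Of the 79 regions between 1 and 5 kb, 55 were red and 24 green. Beyond 50 kb the colours were even, with 31 red and 30 green. The nearest H3K4me3 region lay at higher coordinates for 279 of the 587 regions, close to an even split.

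**Figure D2:**
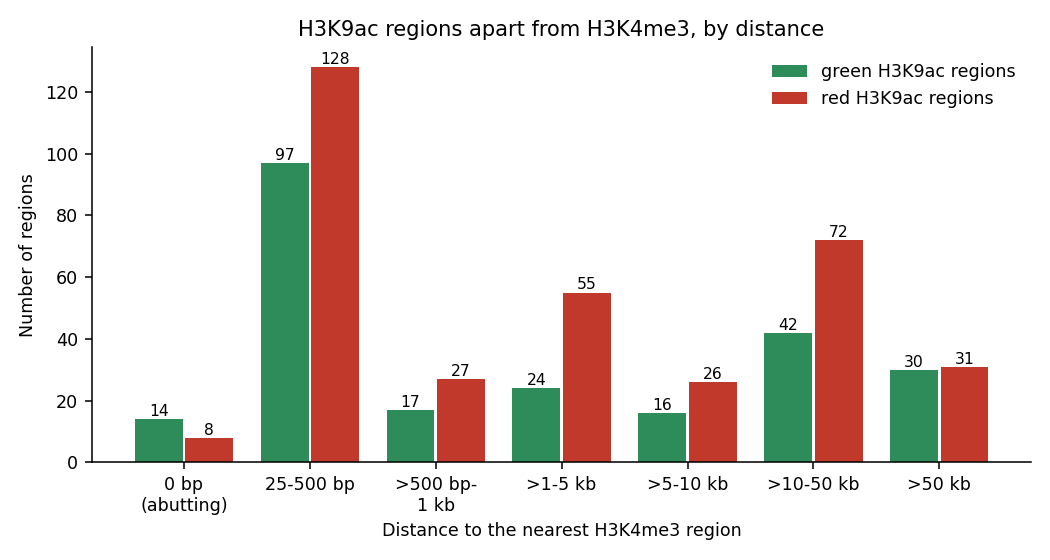
Number of H3K9ac regions apart from H3K4me3 (y axis) in 7 classes of distance to the nearest H3K4me3 region (x axis), with green and red bars for the region's own colour. The class from 25 to 500 bp is the tallest (97 green, 128 red), and the 10 to 50 kb class holds 42 green and 72 red; the classes differ in length, so bar heights do not show density per kb.

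The nearest H3K4me3 region was green more often than the H3K4me3 list as a whole. Over all 587 regions pooled, the 2 colours paired about as often as their separate shares give. It was green for 363 regions (61.8%) and red for 224, while 48.7% of the 13377 H3K4me3 regions on the same chromosomes were green. By distance it was green for 10 of the 22 abutting regions (45.5%), 58.7% of those at 25 to 500 bp, 84.1% of the 44 between 500 bp and 1 kb, and 55.7% to 69.6% in the classes beyond. The H3K9ac region and its nearest H3K4me3 region had the same colour in 280 of 587 cases (47.7%, 43.6 to 51.8), and the product of the separate colour shares gives 47.8%. Red H3K9ac beside green H3K4me3 was found in 215 cases, where that product gives 214.6, followed by green beside green (148), red beside red (132) and green beside red (92). Within 500 bp the same colour was found in 112 of 247 cases (45.3%, 39.0 to 51.8). Between 500 bp and 10 kb it was 85 of 165 (51.5%, 43.6 to 59.4), and beyond 10 kb 83 of 175 (47.4%, 39.8 to 55.1). The colour shares differ between these classes, and the product was computed for all regions only. Whether the colours pair beyond their shares at a given distance was therefore not determined.

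A number of these regions sat in a gap between neighbouring H3K4me3 regions of different colour. With H3K4me3 within 500 bp on both sides there were 52 regions, 29 green and 23 red. In 39 of them the flanking H3K4me3 regions were of different colours, in 13 both were green, and in 0 both were red. Within 2 kb on both sides there were 83 regions, with 53 flanked by different colours, 30 by green on both sides and 0 by red on both sides. In 19 of those 30 the enclosed H3K9ac region was red.

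Because the colours of neighbouring H3K4me3 regions depend on how far apart they are, the gaps were set beside gaps of the same length that touch no H3K9ac region. Between 1 and 1.5 kb long, 36 gaps held a region apart from H3K4me3, and 33 of them (91.7%, 77.5 to 98.2) had different colours on their sides, against 286 of 397 gaps without H3K9ac (72.0%, 67.3 to 76.4). Between 500 bp and 1 kb it was 10 of 21 (47.6%, 25.7 to 70.2), against 199 of 541 (36.8%, 32.7 to 41.0). Over gaps of 500 bp to 3 kb, 0 of 77 holding such a region had red on both sides (0%, 0 to 4.68), against 218 of 1231 without H3K9ac (17.7%, 15.6 to 20.0). From 3 to 10 kb red on both sides was found in 9 of 44 gaps (20.5%, 9.80 to 35.3), against 471 of 1084 (43.5%, 40.5 to 46.5). Gaps over 10 kb held most of the regions, 461 in 402 gaps. Red was on both sides in 77 of those 402 (19.2%, 15.4 to 23.3), against 2731 of 7786 without H3K9ac (35.1%, 34.0 to 36.1). Red on both sides was thus less frequent beside such a region in every length class, though the intervals overlap up to 1.5 kb. Green on both sides was found in 12 of 20 gaps of 1.5 to 3 kb holding such a region (60.0%), against 89 of 293 without H3K9ac (30.4%). Between 1 and 1.5 kb the order was reversed, with 3 of 36 (8.33%) against 71 of 397 (17.9%). Differing sides were thus frequent in gaps of 1 to 1.5 kb with or without H3K9ac, and no test was made because both marks were used to choose the regions.

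**Figure D3:**
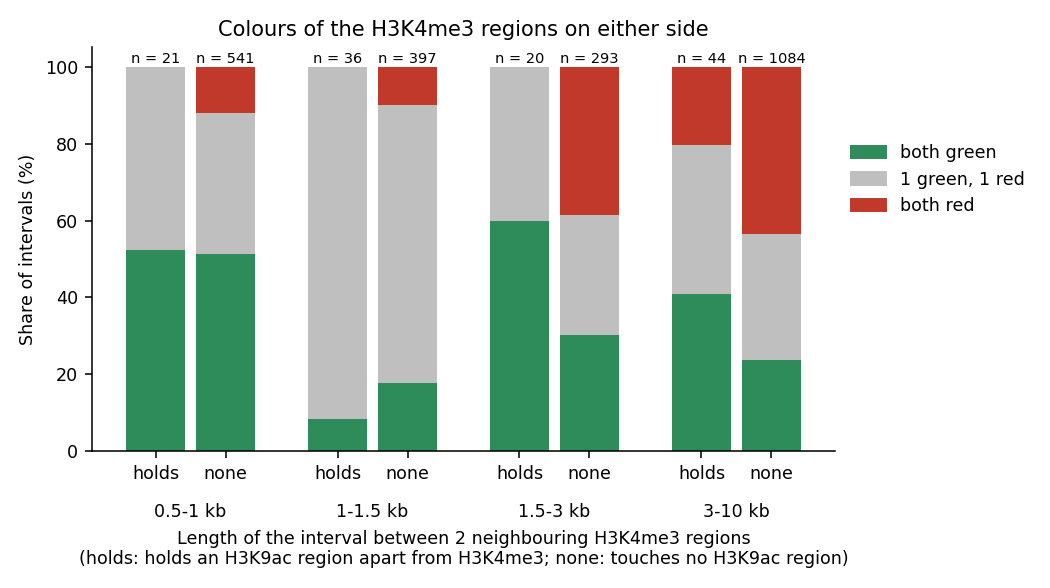
Share of intervals between neighbouring H3K4me3 regions (%, y axis) whose sides are both green, 1 green and 1 red (grey), or both red, by interval length (x axis). The left bar of each pair is for intervals that hold an H3K9ac region apart from H3K4me3 and the right bar for intervals that touch no H3K9ac region; the left bars show no red up to 3 kb, where the right bars hold 10.1% to 38.6%.

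Among the widest red regions, several lay beside both H3K4me3 and Notch1. The 10 widest measured 1400 to 2600 bp and lay on 6 chromosomes. A Notch1 peak was within 10 kb of 5 of these 10, against 97 of all 347 red regions apart from H3K4me3 (28.0%, 23.3 to 33.0). The difference was not tested. The widest, chr4:132641676-132644275 (2600 bp), lay 100 bp from a red H3K4me3 region and shared its first 25 bp with a Notch1 peak. The next, chr11:69222851-69225300 (2450 bp), lay 175 bp from a green H3K4me3 region and contained a whole Notch1 peak of 1050 bp. Another red region on chromosome 4, chr4:132853576-132855500 (1925 bp), lay 2.675 kb from a green H3K4me3 region and 975 bp from a Notch1 peak. The other red regions of 1900 bp or more were chr1:167778426-167780350, 57.8 kb from H3K4me3, chr19:10857651-10859550, at 4.375 kb, and chr7:29167126-29169025, 250 bp from green H3K4me3. For 7 of these 10 red regions the nearest H3K4me3 region was green, as it was for 215 of all 347 red regions apart from H3K4me3.

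The 10 widest green regions measured 950 to 1200 bp. A Notch1 peak was within 10 kb of 1 of these 10, against 38 of all 240 green regions apart from H3K4me3 (15.8%, 11.5 to 21.1). The widest, chr11:82892126-82893325 (1200 bp), lay 10.6 kb from a green H3K4me3 region 3400 bp wide and 161.1 kb from a Notch1 peak. It was followed by chr4:86221601-86222700 (1100 bp), 50 bp from green H3K4me3, and by chr6:41505926-41506950 (1025 bp), 250 bp from green H3K4me3. The region with the Notch1 peak was chr4:87677301-87678275 (975 bp), which contained a peak of 625 bp and lay 1.925 kb from green H3K4me3. Of the 10, 4 lay within 1 kb of H3K4me3 and 4 beyond 10 kb.

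Few of these regions formed clusters. Joining regions within 5 kb of each other left 492 alone and gave 44 clusters of 2 or more, of which 38 were of 1 colour. A further H3K9ac region of any kind stood within 5 kb of 154 regions (26.2%, 22.7 to 30.0), against 25.6% (23.2 to 28.0) of those sharing bases with H3K4me3. All such neighbours had the region's own colour in 122 of the 154 cases (79.2%, 72.0 to 85.3), against 268 of 330 (81.2%, 76.6 to 85.3). The 2 largest clusters held 4 regions each. The green one, chr6:41500651-41506950, spanned 6300 bp and lay in a stretch with 4 green H3K9ac regions that share bases with H3K4me3 and 4 green H3K4me3 regions within 5 kb. Its regions were 0.250 to 3.475 kb from H3K4me3 and at least 57.0 kb from a Notch1 peak. The red one, chr19:53495876-53500250, spanned 4375 bp, of which its 4 regions covered 3825 bp. No region of the other lists, and no H3K9ac region sharing bases with H3K4me3, lay within 5 kb of it, and its regions were 29.5 to 32.3 kb from H3K4me3 and at least 99.5 kb from a Notch1 peak. The map of both clusters shows the green one bracketed by H3K4me3 and the red one standing alone.

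**Figure D4:**
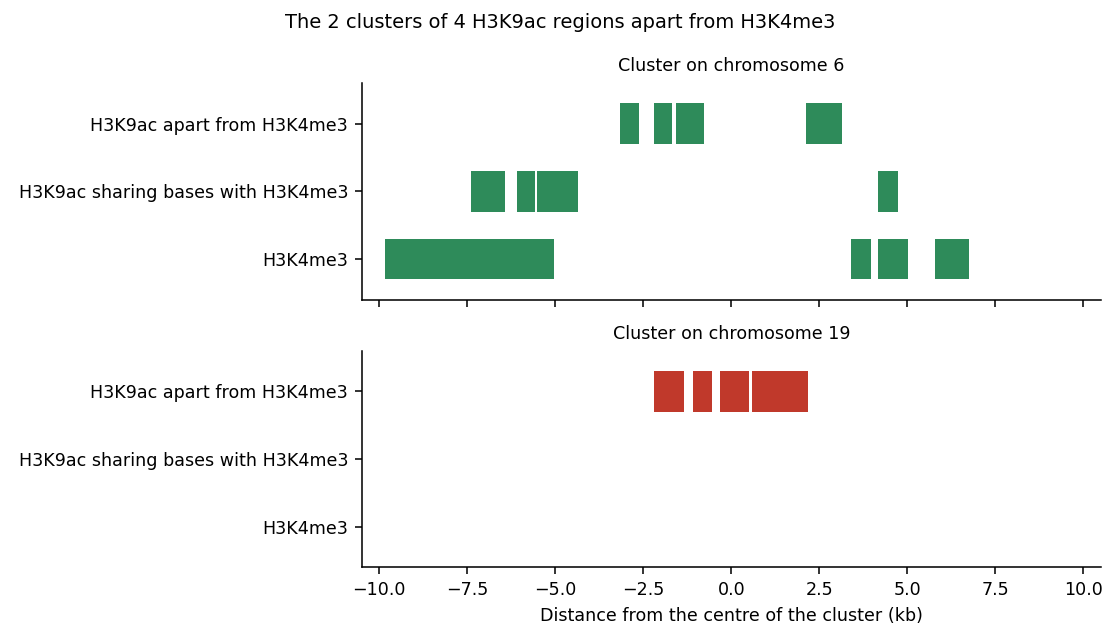
Regions around the 2 clusters of 4 H3K9ac regions apart from H3K4me3, drawn to scale in green or red as in the lists, with distance from the cluster's centre in kb on the x axis and a row per kind of region. The chromosome 6 cluster is green and lies between 4 green H3K4me3 regions, and the chromosome 19 cluster is red with no H3K4me3 within 5 kb.

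There were 3 clusters of 3 regions, all red. The one on chromosome 1, chr1:167773926-167780350, covered 3400 of 6425 bp and lay 53.3 to 57.8 kb from H3K4me3 and 29.6 to 35.4 kb from a Notch1 peak. Those on chromosome 11, chr11:68907626-68911475, and chromosome 7, chr7:52104726-52113025, lay near green H3K4me3 regions, with 2 and 3 of them within 5 kb. Their regions were 5.05 to 8.075 kb and 6.80 to 9.45 kb from a Notch1 peak.

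The regions farthest from H3K4me3 were ordinary in width. Of the 175 beyond 10 kb, 103 were red and 72 green, with a median width of 625 bp, and they were found on all 11 chromosomes. Beyond 100 kb there were 14. The 5 farthest were chr3:50246626-50247500 (875 bp, red, 462.3 kb), chr19:31157551-31158050 (500 bp, red, 409.3 kb), chr1:145850651-145851250 (600 bp, red, 224.8 kb), chr1:177810376-177810900 (525 bp, red, 187.7 kb) and chr17:65103526-65104150 (625 bp, green, 149.7 kb). None of these 5 had a Notch1 peak within 10 kb, the nearest being 25.2 kb from the second. At the opposite end, the first 5 of the 22 abutting regions in order of position were chr1:7078126-7078625, chr1:39958551-39959125, chr1:90170301-90170900, chr1:129670576-129671250 and chr2:93997651-93998350, all 500 to 700 bp wide. A total of 138 regions (61 green, 77 red) had no region of any other list within 10 kb, and 38 (23 green, 15 red) had none within 50 kb.

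Notch1 peaks, which the choice of regions did not use, were rare inside regions apart from H3K4me3, at a share near that of the whole list. A peak shared bases with 13 of 587 regions (2.21%, 1.18 to 3.76), against 26 of 1291 regions sharing bases with H3K4me3 (2.01%, 1.32 to 2.94) and 2.08% of all H3K9ac regions. The odds ratio was 1.10 (0.516 to 2.24) and did not pass (two-sided Fisher's exact test, p = 0.86, adjusted p = 0.86 over the 4 comparisons made). A peak lay within 10 kb of 135 regions (23.0%, 19.7 to 26.6), against 247 of 1291 (19.1%, 17.0 to 21.4) and 20.3% of the list. This difference did not pass either (odds ratio 1.26, 0.987 to 1.61; Fisher's exact test, p = 0.055, adjusted p = 0.22). The 2 classes also differ in colour (59.1% against 44.8% red), and no odds ratio was computed within a colour. Neighbouring regions can have the same peak within 10 kb, so the counted regions are not independent. With H3K9ac regions within 1 kb merged, the odds ratio was 1.13 (0.868 to 1.47). The median distance to a Notch1 peak was 44.8 kb (35.4 to 52.55), against 51.6 kb (45.3 to 57.1).

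The 13 regions holding a Notch1 peak were 9 red and 4 green, and 9 of them lay within 1 kb of H3K4me3. Of all 587 regions apart from H3K4me3, 59.1% were red and 49.6% lay within 1 kb of H3K4me3. With 13 regions these counts are a description only. In 6 of them the peak covered at least 50% of the region. The most fully covered were chr7:52970126-52970625 (red, wholly covered), chr7:149647801-149648425 (red, 96.0%), chr9:107436951-107437575 (red, 80.0%), chr4:119212801-119213400 (green, 79.2%), chr4:87677301-87678275 (green, 64.1%) and chr16:4789026-4789525 (red, 50.0%). The peak covered 34.8% and 39.1% of the green regions chr11:117516426-117517000 and chr11:72020176-72020750. It covered 42.9% of the red region chr11:69222851-69225300 and 30.8% of the red region chr19:53675526-53676175. In the red region chr4:132641676-132644275 only 0.962% was shared. The remaining pair was the one beyond 10 kb from H3K4me3, namely chr17:34973951-34974850 (red, 56.8 kb away, 22.2% covered) and chr7:7251751-7252650 (red, 20.4 kb away, 19.4% covered).

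Red regions lay nearer to Notch1 peaks than green ones, both apart from H3K4me3 and in contact with it. Apart from H3K4me3 the median distance was 29.6 kb (23.75 to 39.2) for red and 63.8 kb (52.55 to 86.6) for green regions. A peak lay within 10 kb of 97 of 347 red regions (28.0%, 23.3 to 33.0) and 38 of 240 green ones (15.8%, 11.5 to 21.1). In the regions sharing bases with H3K4me3 the shares were 24.5% (21.1 to 28.2) for red and 14.7% (12.2 to 17.6) for green, the same order as in the regions apart from it. The difference between colours was noticed in the values and was not tested. Red regions had the shorter median distance on 9 of 11 chromosomes, chromosomes 6 (69.8 kb red, 61.2 kb green) and 16 (55.1 kb red, 47.0 kb green) being the exceptions. On chromosome 7 the medians were 16.4 kb for its 61 red and 28.2 kb for its 12 green regions. Chromosome 7 had 7.60 Notch1 peaks per Mb, within a range from 2.75 on chromosome 3 to 10.2 on chromosome 11.

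**Figure D5:**
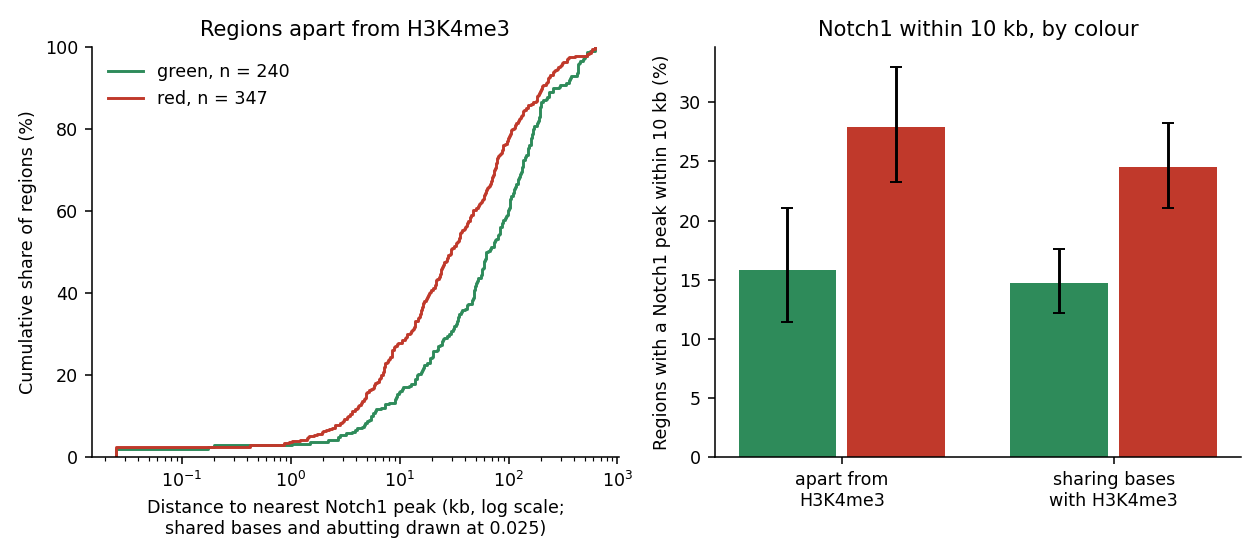
Left, cumulative share of the green (n = 240) and red (n = 347) H3K9ac regions apart from H3K4me3 (%, y axis) by distance to the nearest Notch1 peak (kb, log scale). Right, share of regions with a Notch1 peak within 10 kb (%, bars with 95% Clopper-Pearson intervals) by colour, for regions apart from H3K4me3 (15.8% green, 28.0% red) and regions sharing bases with it (14.7% green, 24.5% red).

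The share of regions with a Notch1 peak nearby was also split by distance to H3K4me3. Of the 412 regions within 10 kb of H3K4me3, 107 had a Notch1 peak within 10 kb (26.0%, 21.8 to 30.5), against 28 of the 175 farther away (16.0%, 10.9 to 22.3). Beyond 50 kb it was 3 of 61 (4.92%, 1.03 to 13.7), and among the abutting regions 1 of 22 (4.55%, 0.115 to 22.8), so the share did not fall steadily with distance. For 88 regions, 60 red and 28 green, a Notch1 peak was nearer than any H3K4me3 region. These shares are descriptions, and the part that the density of all lists along the chromosomes has in them was not tested.

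H3K27me3 regions seldom met regions apart from H3K4me3. An H3K27me3 region shared bases with 6 of 587 (1.02%, 0.376 to 2.21), against 21 of 1291 (1.63%, 1.01 to 2.48) and 1.44% of the list (odds ratio 0.625, 0.205 to 1.61; Fisher's exact test, p = 0.40, adjusted p = 0.54). One lay within 10 kb of 45 (7.67%, 5.65 to 10.1), against 125 of 1291 (9.68%, 8.12 to 11.4) and 9.05% of the list (odds ratio 0.775, 0.530 to 1.12; Fisher's exact test, p = 0.17, adjusted p = 0.33). Neither difference passed, and the intervals include odds ratios on both sides of 1. The median distance to H3K27me3 was 84.1 kb (77.4 to 95.7), against 89.0 kb (81.0 to 97.0).

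The 6 regions that met H3K27me3 all met red H3K27me3, and 5 of them were green, as were 20 of the 21 such regions that share bases with H3K4me3. These green regions were chr1:59819476-59820450, chr1:194680801-194681525, chr17:36281826-36282425, chr19:58528751-58529525 and chr2:102290676-102291250, each with a green H3K4me3 region as its nearest. The red region was chr1:90159451-90160050, 475 bp from red H3K4me3. The region on chromosome 19 also lay 175 bp from a Notch1 peak. Of the 17 green regions with H3K27me3 within 10 kb, the nearest was red in 14 and green in 3, and of the 28 red regions it was red in 21 and green in 7. Together that is 35 of 45 red (77.8%, 62.9 to 88.8), while 55.7% of the H3K27me3 regions on the same chromosomes were red. This colour was not counted for the 125 regions sharing bases with H3K4me3 that have H3K27me3 within 10 kb. The share is therefore not shown to be particular to the regions apart. Both Notch1 and H3K27me3 lay within 10 kb of 19 of the 587 regions (12 red, 7 green). No matching count was made for the other H3K9ac regions, so this number cannot be set against the share of the whole list. In 4 of those 19 no H3K4me3 region lay within 10 kb, namely the red regions chr4:155205526-155206100, chr7:7251751-7252650 and chr7:46807551-46808075 and the green region chr2:30683126-30684025.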

How the data were processed

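Histone libraries were made from micrococcal nuclease-cut chromatin and the Notch1 library from sonicated chromatin, per the labels' protocols. Single-end reads were 36 bp long, per the labels, and were processed with BWA on build NCBIM37 (mm9), per the submitters' processing notes. How regions were called, at which thresholds, with which input and on which libraries is not stated in those notes or in the file headers. In the 4 BED lists deposited by the authors the score is 1000 in every row and was not used. Coordinates are mm9 with 1-based starts. The gene and sequence tables at hand are on GRCm38, so no gene was assigned, no sequence is shown, and the planned gene lists and motif search were not run.

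Overlap means 1 shared base. Distances were computed with Python 3.11.15, checked against bedtools and on simulated lists. The 4 shares were compared by two-sided Fisher's exact test (SciPy 1.17.1), adjusted by the Benjamini-Hochberg method. Odds ratios are conditional estimates with exact 95% intervals, and medians carry exact order-statistic intervals. Regions named are the 10 widest of each colour, the 5 nearest to and 5 farthest from H3K4me3 (ties by position), those holding a Notch1 peak and clusters of 4 or more. Those meeting H3K27me3, those with Notch1 and H3K27me3 near, and clusters of 3 were named after their values were seen. The members and lists were chosen with earlier results of these data known. Alternatives were other limits of contact, width filters, merging and stricter Notch1 overlap.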

Additional observations from a re-analysis of the deposited data

How the results depend on the processing

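No paired analysis was possible because each list gives positions alone, with nothing measured per library. Leaving out a replicate was therefore not possible either. Over 9 alternatives, of which leaving out chromosomes 7 and 19 was chosen after seeing the data, none of the 30 recomputed odds ratios passed the threshold, and 7 that were not called crossed 1. For a Notch1 peak in the region the odds ratio became 0.667 and 0.453 with no H3K4me3 within 1 or 5 kb, 0.953 with regions under 50% covered by H3K4me3, 0.828 with H3K9ac merged within 1 kb and 0.879 with 50% of the region under a peak. That of a peak within 10 kb became 0.926 with no H3K4me3 within 5 kb, and that of an H3K27me3 region in the region 1.14 with regions under 50% covered. The lowest adjusted p of any was 0.054, for a peak within 10 kb with regions under 50% covered (range over that result's settings 0.054 to 0.78, Fisher's exact test). The odds ratio in that setting was 1.33 (1.06 to 1.68), an interval above 1 that is not adjusted for the 4 comparisons. The number of regions was 296 and 217 with no H3K4me3 within 1 and 5 kb, 985 under 50% covered and 271 at or above the median width, by construction. The median distance to H3K4me3 in those settings was 15050, 24275, 100 and 1950 bp. The median distance to Notch1 became 54.7 and 60.7 kb with no H3K4me3 within 1 and 5 kb. With none within 5 kb the share holding a Notch1 peak was 0.922% and the share with a peak within 10 kb was 18.0%. The share holding a peak was 0.852% with only Notch1 peaks no narrower than the median and 1.02% with 50% of the region under a peak. The green share was 35.8% at or above the median width and 46.4% without chromosomes 7 and 19. Except where the limit or filter itself sets the value, the cause was not tested. In 3 other settings the number of regions was 481 to 551, and 62 further recomputed values stayed within the interval or on the side of the threshold of the reported one. With 13 and 6 regions holding a Notch1 peak or H3K27me3, the odds ratio intervals run over 0.516 to 2.24 and 0.205 to 1.61. The counts therefore do not tell apart odds ratios inside these intervals, and the smallest detectable difference was not computed.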
